A study of Arabidopsis thaliana with 9 samples.

Results

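AIR1 (AT4G12550), AT4G12500, AT4G22470 and LTP3 (AT5G59320) are 4 Arabidopsis thaliana genes of the superfamily of lipid transfer proteins. They were chosen by their identifiers, out of the 2507 genes that the deposited lists hold, with their deposited fold changes already known, so those folds are a description here and carry no test of their own. Whole seedlings (leaf, stem and root together) 14 days old were sequenced as RNA, with 3 libraries in each of 3 groups. The groups were wild type (Columbia), an RNA interference line against the nuclear sirtuin gene SRT1 (line RNAi-1, here RNAi) and a line overexpressing SRT1 (line OX-SRT1-1, here OX). All were grown on half-strength medium in a climate chamber under normal conditions, each transgenic group was 1 line as far as the labels say (the lists call them ox5 and r5, with no key to the line names), and the labels used here do not name the promoter that drove either construct. Whether the 3 libraries per group are separate plants or technical repeats is not given in the labels.

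Lipid transfer proteins are small secreted proteins that bind lipids or other hydrophobic molecules in a pocket held together by disulfide bridges between conserved cysteines. In plants they act in the cuticle and the cell wall, and several take part in defence and stress responses. In the EARLI1-type branch, to which AT4G12500 belongs, a proline-rich stretch lies between the signal peptide and the cysteine motif. AIR1 was named for its induction by auxin in root cultures, and LTP3 is induced by abscisic acid and drought.

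What the encoded proteins share is the 8-cysteine motif, and its spacing divides the 4 genes. The stretch of coding sequence from the CC pair to the CxC triplet is shown because its length separates the AIR1 type from the LTP type. It is read 5′ to 3′ on the coding strand of the RefSeq genome (TAIR10.1), with cysteine codons in capitals. AIR1, AIR1B (AT4G12545), AT4G12500, AT4G12490, AT4G12510 and AT4G22470 lie on chromosome 4, LTP3 and LTP4 on chromosome 5.
AIR1: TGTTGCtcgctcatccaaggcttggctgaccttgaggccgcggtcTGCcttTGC
AIR1B: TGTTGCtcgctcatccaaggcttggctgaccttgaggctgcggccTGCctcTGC
AT4G12500: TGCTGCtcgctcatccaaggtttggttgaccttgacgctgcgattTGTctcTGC
AT4G12490: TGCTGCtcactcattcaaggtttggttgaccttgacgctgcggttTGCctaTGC
AT4G12510: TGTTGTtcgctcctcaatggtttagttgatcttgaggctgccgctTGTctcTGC
AT4G22470, first motif: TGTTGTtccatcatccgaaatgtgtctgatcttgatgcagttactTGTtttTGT
LTP3: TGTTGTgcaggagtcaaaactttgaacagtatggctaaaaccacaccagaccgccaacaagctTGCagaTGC
LTP4: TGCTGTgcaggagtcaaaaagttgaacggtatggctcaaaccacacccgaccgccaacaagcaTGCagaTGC

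In AIR1, AT4G12500 and AT4G22470, 13 residues lay between the CC pair and the CxC triplet (54 bases in all), against 19 residues in LTP3 and LTP4 (72 bases). Over this stretch AIR1 differed from its neighbour AIR1B at 3 of 54 bases, from AT4G12500 at 9 and from AT4G22470 at 20. The proteins also differed in length and in their proline content, computed from the RefSeq coding sequences. AIR1 had 111 residues and LTP3 115, and in both the motif began close behind the start, at residues 28 and 27. AT4G12500 had 177 residues, and 24.7% of the 93 residues ahead of its motif were proline. AT4G22470 had 375 residues, 44.0% proline in the 175 residues ahead of its first motif, and a second motif at residues 297 to 374. Within the motif, AIR1 was 58.3% identical to AT4G12500, 33.7% to AT4G22470 and 21.2% to LTP3, counting gaps as differences.

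**Figure D1:**
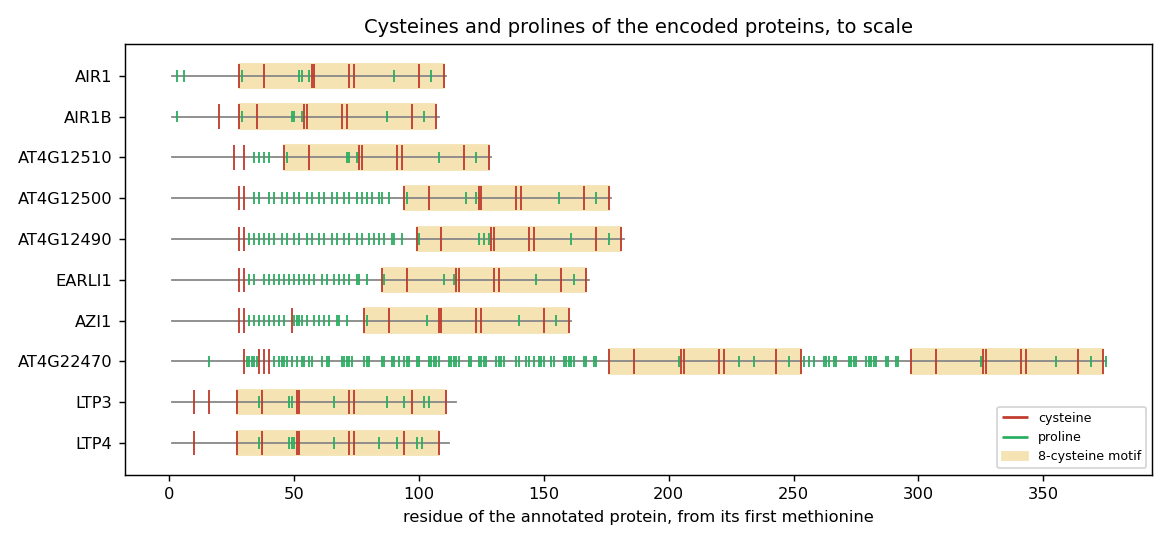
Position of each cysteine (red) and proline (green) along the annotated protein, in residues from its first methionine, with 8-cysteine motifs shaded. AIR1 and LTP3 have 111 and 115 residues, AT4G12500 has 177 with a proline-rich part ahead of the motif, and AT4G22470 has 375 with 2 motifs.

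The lists hold only genes that the authors called different, at least 2-fold apart with a q-value of at most 0.0496, and give 1 FPKM value per group. FPKM is a count of fragments scaled to transcript length and to the mapped fragments of the library. There is no value per library, so no SD or interval can be given, every call is that of the authors' deposited table, and depth is unknown. A gene outside the lists is not shown to be unchanged. In whole seedlings, fewer cells of a type and less RNA per cell cannot be told apart.

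The titles and column labels of the RNAi tables conflict, and AIR1 shows how. Its value labelled wild type was 59.0 FPKM in the OX tables but 3.68 FPKM in the list titled higher in RNAi, where 54.8 FPKM stands under the label RNAi. LTP3 is in the list titled lower in RNAi, yet there it was 6.06 FPKM under the label RNAi and 2.38 FPKM under wild type, against 2.53 FPKM for wild type in the OX tables. For all 4 genes the second columns of the 2 comparisons were close, the ratio of OX to RNAi tables running from 1.06 for AT4G12500 to 1.08 for AT4G22470. Over the 550 genes listed in both comparisons under a locus of their own, that log2 ratio had a median of 0.08, and 549 lay within 0.1 of it.

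The 1 exception was the targeted gene, SRT1, at 2.06. SRT1 was 6.05 FPKM in OX against 1.75 FPKM, and in the list titled lower in RNAi 2.37 FPKM in the first column, labelled RNAi, against 0.419 FPKM in the second, labelled wild type. If the titles hold, the second column is RNAi and SRT1 was 5.67-fold lower in RNAi. AIR1, AT4G12500 and AT4G22470 were then higher in RNAi and LTP3 lower. For 549 of the 550 genes, RNAi would then have nearly the values that the OX tables label wild type. That label, and so the OX folds as folds against wild type, would be in doubt. The median absolute deviation of the log2 ratio between the comparisons was 0.008 for second columns and 0.434 for first columns. If the match with the OX tables holds, the first column is RNAi, SRT1 was higher in RNAi, the 3 genes lower and LTP3 higher. Both OX tables, and the RNAi list that holds LTP3 and SRT1, label the second column wild type. Only the RNAi list that holds AIR1 labels it RNAi. The reading by titles thus conflicts with the match of the second columns and with most labels. The reading by the match conflicts with the titles and leaves the targeted gene higher in RNAi. Which reading holds was not tested, so all values below are set as first column against second. For the RNAi tables, "lower" or "higher" means the first column relative to the second.

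AIR1 lies on chromosome 4 at 7439115 to 7439805 on the plus strand in the deposited TAIR10 loci, as 1 exon. Its level was 6.29 FPKM in OX against 59.0 FPKM in the second column, and 3.68 FPKM against 54.8 FPKM in the RNAi lists. Both first columns were thus far under both values of the second column, 9.38-fold lower in OX and 14.9-fold lower in the RNAi tables. In the authors' deposited tables the p-value was 5e-05, the smallest that occurs, and the q-value 0.00015 and 0.000199. By size of fold AIR1 stood 31st of the 745 nuclear genes lower in OX and 2nd of the 673 nuclear genes lower in the first column of the RNAi tables.

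AT4G12500 (chromosome 4, 7414150 to 7414927, minus strand, 1 exon) encodes a hybrid proline-rich protein of the EARLI1 type. It was 2.48 FPKM in OX against 16.3 FPKM, and 0.502 FPKM in the first RNAi column against 15.4 FPKM. The folds were 6.56 in OX and 30.7 in the RNAi tables, where it had the largest fold of all 749 listed lower genes. The level of 0.502 FPKM is low, and with 1 added to both values its log2 ratio in the RNAi tables fell in size from -4.94 to -3.45. Its q-values in the authors' deposited tables were 0.00015 and 0.000199.

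AT4G22470 (chromosome 4, 11840134 to 11841450, minus strand, 1 exon) encodes the long proline-rich protein with 2 motifs. Its larger fold was the one in OX: it was 0.783 FPKM there against 23.6 FPKM, a 30.1-fold difference, and 5.22 FPKM in the first RNAi column against 21.8 FPKM, a 4.17-fold difference. It stood 6th of the 745 nuclear genes lower in OX and 79th of 673 in the RNAi tables. With 1 added to both values its log2 ratio in OX fell in size from -4.91 to -3.79. The authors' deposited q-values were again 0.00015 and 0.000199.

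LTP3 (chromosome 5, 23928971 to 23929745, plus strand, 2 exons) was the member that was higher. It was 7.46 FPKM in OX against 2.53 FPKM, and 6.06 FPKM in the first RNAi column against 2.38 FPKM. The folds of 2.95 and 2.55 were moderate, ranking 281st of 1134 higher genes in OX and 129th of 377 in the RNAi tables. The authors' deposited q-values were 0.00015 and 0.000199 here too.

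Among the 4 genes, then, 3 were lower and 1 higher in each comparison. Of all listed genes, 42.3% were lower in OX and 66.5% lower in the first column of the RNAi tables, and since the genes were chosen on these contrasts nothing is read from the count. The lists hold 6.39% of the 27444 annotated nuclear protein-coding genes in OX, 3.64% in the RNAi tables and 8.31% in either, a share of annotated genes, since the number tested is not known here. The second columns of both comparisons were nearly equal, so their folds are not independent. The order of the levels was second column, OX, first RNAi column for AIR1 and AT4G12500. It was second column, first RNAi column, OX for AT4G22470, and OX, first RNAi column, second column for LTP3. The 2 first columns differed 1.71-fold for AIR1, 4.94-fold for AT4G12500, 6.67-fold for AT4G22470 and 1.23-fold for LTP3. They were normalized in separate tables, and with 1 value per group these differences were not tested.

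**Figure D2:**
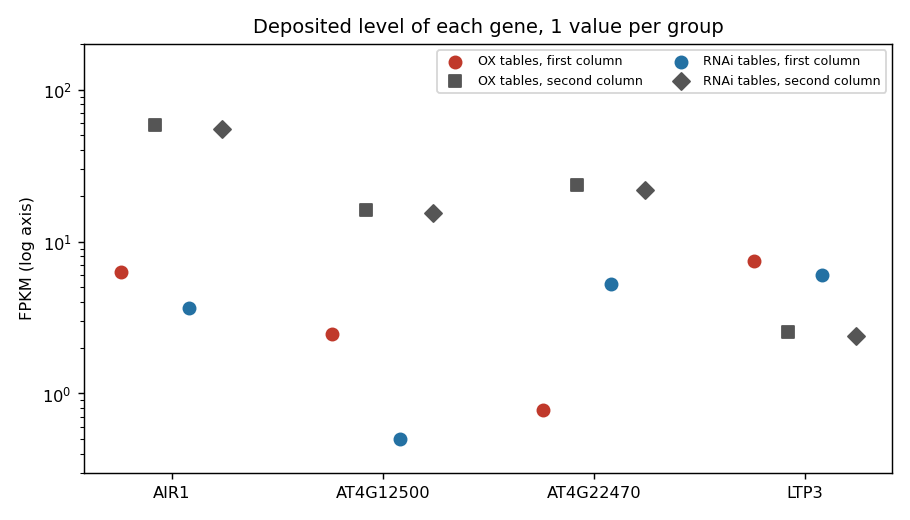
FPKM of the 4 genes on a log axis, 1 point per deposited group value, with circles for first columns and grey squares and diamonds for second columns. The grey pairs lie close together for each gene, the circles lie below them for AIR1, AT4G12500 and AT4G22470, and above them for LTP3.

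**Figure D3:**
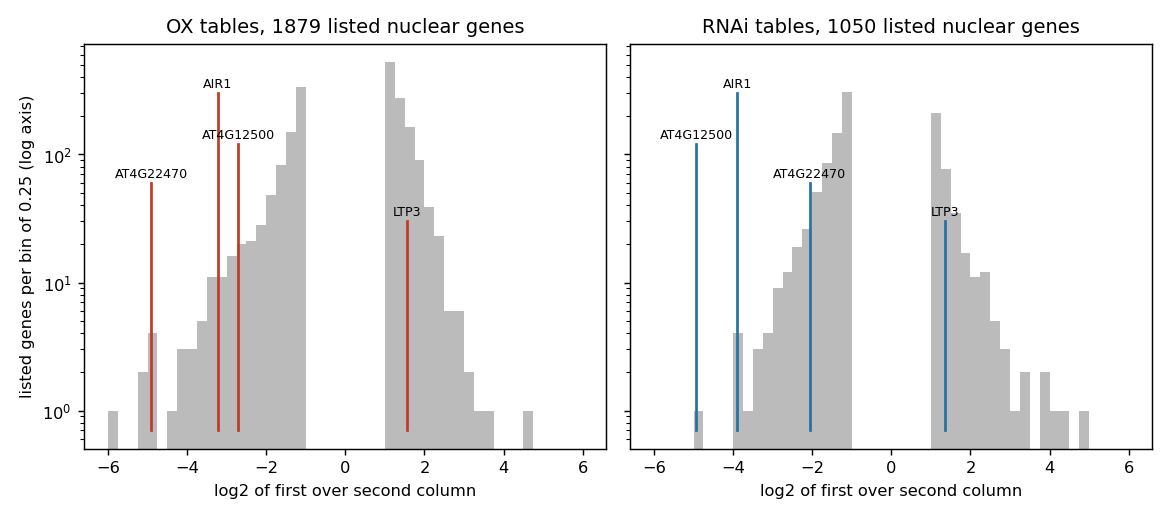
Listed nuclear genes by log2 of first over second column, in bins of 0.25 on a log count axis, for the OX and the RNAi tables, with a line at each of the 4 genes. AT4G22470 lies far out in OX, at -4.91, AT4G12500 in the RNAi tables, at -4.94, and LTP3 within the bulk of the higher genes.

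AIR1 and AT4G12500 stand in a tandem group of related genes on chromosome 4 that spans 38.7 kb from AT4G12470 to AT4G12550 in the RefSeq annotation. Of the 10 genes with the identifiers AT4G12470, AT4G12480, AT4G12490, AT4G12500, AT4G12510, AT4G12520, AT4G12530, AT4G12540, AT4G12545 and AT4G12550, 9 were listed in at least 1 comparison, and AT4G12530 in neither. The annotation holds 13 genes with identifiers in this range. AT4G12485, AT4G12495 and AT4G12543, which overlap EARLI1, AT4G12490 and AIR1B on the opposite strand, were not listed either. Lower in both comparisons were 6 of the 10: AIR1, AT4G12500, AZI1, EARLI1, AT4G12490 and AIR1B. Of annotated nuclear protein-coding genes 8.31% were listed in either comparison. Of all listed genes, 42.3% were lower in OX and 66.5% in the first column of the RNAi tables. AIR1 and AT4G12500 were chosen on these contrasts, so nothing is read from these counts.

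AZI1 (AT4G12470), which acts in azelaic acid-induced priming of systemic immunity, had the highest level of the listed genes of the group. It was 21.6 FPKM in OX against 359 FPKM, 16.6-fold lower, and 91.4 FPKM in the first RNAi column against 340.2 FPKM, 3.72-fold lower. EARLI1 (AT4G12480), a cold- and aluminium-induced gene, was 18.4 against 124 FPKM in OX, 6.74-fold lower, and 39.4 against 117 FPKM in the RNAi tables, 2.97-fold lower. These genes at the far end of the group thus had larger folds in OX than in the RNAi tables, as AT4G22470 did, while AT4G12500 had the reverse.

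AT4G12490, whose role is not given by the annotation beyond the superfamily, was 3.34 against 46.1 FPKM in OX and 4.43 against 43.8 FPKM in the RNAi tables, 13.8-fold and 9.89-fold lower. AIR1B, the close copy of AIR1, was 2.97 against 19.5 FPKM in OX and 2.62 against 18.2 FPKM in the RNAi tables, 6.57-fold and 6.94-fold lower. For AIR1B the folds in the 2 comparisons were nearly equal.

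The genes in the middle of the group were listed once at most. AT4G12510 was higher in OX, 1.99 against 0.884 FPKM, 2.25-fold, with a q-value of 0.0255 in the authors' deposited table. AT4G12540, an uncharacterized gene with no lipid transfer product name, was also higher in OX, 0.472 against 0.167 FPKM, with a deposited q-value of 0.0215. AT4G12520 was lower in the first RNAi column, 3.13 against 6.60 FPKM, 2.11-fold. AT4G12510 and AT4G12520 encode identical proteins and their coding sequences were 99.5% identical, so the division of reads between them is uncertain and their levels cannot be read apart. The coding sequences of AT4G12490 and AT4G12500 were 90.5% identical and those of AIR1 and AIR1B 93.2%, which can also affect how reads were divided.

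Several of these genes overlap a gene on the opposite strand in the RefSeq annotation. For AIR1 this is AT4G12555, over 642 of 691 bases, for AIR1B AT4G12543, over 444 of 660, and for AT4G22470 AT4G22467, over all 1317 bases. AT4G12490 overlaps AT4G12495 over 282 of 786 bases, and EARLI1 overlaps AT4G12485 over 32 of 930. None of these partners was listed. The labels do not state a stranded library, and without strand the reads of the partners cannot be told apart.

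**Figure D4:**
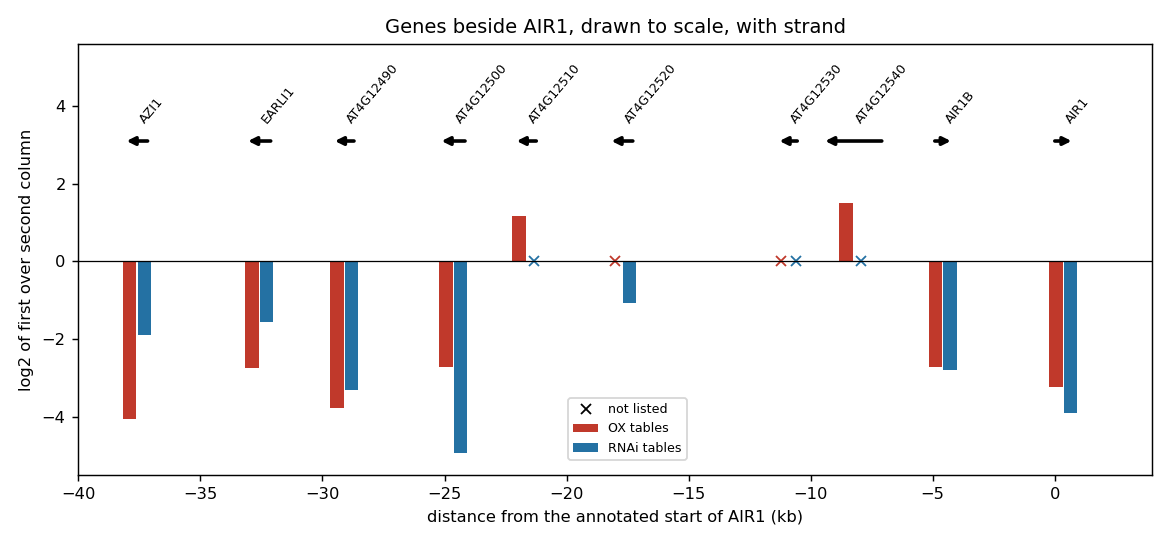
Of the 13 annotated genes from AZI1 to AIR1, 10 drawn to scale by distance from the start of AIR1 in kb (arrows give the strand), with log2 of first over second column for the OX and RNAi tables and a cross where a gene was not listed. AZI1, EARLI1, AT4G12490, AT4G12500, AIR1B and AIR1 have bars below 0 in both, and AT4G12510 and AT4G12540 a bar above 0 in OX.

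The 250 bases ahead of the annotated start are shown for AIR1, AT4G22470 and LTP3 because AIR1 and AT4G22470 moved together and LTP3 the other way. They were searched on both strands for 3 motifs: TTGAC, the core of the W-box bound by WRKY factors, ACGTG, the core of the abscisic acid response element, and TGTCTC, the auxin response element. Matches are in capitals, and no 2 of them overlapped. The sequences read 5′ to 3′ along each gene's strand, from TAIR10.1. The windows are chr4:7438865-7439114 for AIR1 (plus strand), chr4:11841451-11841700 for AT4G22470 (minus) and chr5:23928704-23928953 for LTP3 (plus).
AIR1: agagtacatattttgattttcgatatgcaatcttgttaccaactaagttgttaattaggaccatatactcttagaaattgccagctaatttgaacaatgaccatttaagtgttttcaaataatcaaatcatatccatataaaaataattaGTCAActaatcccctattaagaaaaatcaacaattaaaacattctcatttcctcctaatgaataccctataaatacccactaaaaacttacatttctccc
AT4G22470: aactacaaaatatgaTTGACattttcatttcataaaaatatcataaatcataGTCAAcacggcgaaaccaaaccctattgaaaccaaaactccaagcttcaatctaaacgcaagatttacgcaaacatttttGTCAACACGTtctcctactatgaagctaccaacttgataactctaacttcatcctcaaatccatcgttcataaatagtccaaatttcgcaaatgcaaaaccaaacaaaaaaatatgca
LTP3: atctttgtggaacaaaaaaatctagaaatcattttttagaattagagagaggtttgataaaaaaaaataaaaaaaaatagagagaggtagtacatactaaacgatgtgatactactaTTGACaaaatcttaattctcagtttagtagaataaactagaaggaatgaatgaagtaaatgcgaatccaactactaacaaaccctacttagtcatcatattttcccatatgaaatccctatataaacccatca

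TTGAC stood in all 3 windows, once in AIR1 and LTP3 and 3 times in AT4G22470. It occurs in 44.9% of the 27437 windows of the same length ahead of protein-coding genes. In the tandem group it was found ahead of AZI1, EARLI1, AT4G12490, AIR1B and AIR1, and not ahead of AT4G12510, AT4G12520 or AT4G12530. In AIR1 and AIR1B it began 100 and 102 bases before the start. ACGTG was found ahead of AT4G22470 and, in the tandem group, of AZI1, 2 of the 10 windows searched (22.9% of all windows). TGTCTC was found ahead of 0 of these 10 (10.9% of all windows). These matches are letters in a window and say nothing of binding.

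Beyond the tandem group, the lipid transfer superfamily was taken as 144 genes, by product name or a written list, of which 32 were listed in either comparison, where 8.31% of all annotated nuclear protein-coding genes were. In OX, 20 were lower and 4 higher, and 22 were lower and 2 higher in the RNAi tables. Of all listed genes, 832 of 1966 and 749 of 1126 were lower. Without the 4 chosen genes and the tandem group, 13 were lower and 2 higher in OX, and 14 were lower and 1 higher in the RNAi tables. The median fold of these lower genes was 2.49 in OX and 2.41 in the RNAi tables, against 2.49 and 2.42 for all nuclear lower genes, so their folds were of the usual size. These are counts of listed genes with no test.

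By branch, the written EARLI1-type list of 29 genes had 14 lower and 1 higher in OX. In the RNAi tables it had 16 lower and 0 higher. These counts include AIR1, AT4G12500, AT4G22470 and genes of the tandem group. The list is wider than the proline-rich branch described above. Ahead of the motif AIR1 had 7.4% proline, AIR1B 3.7%, and AT4G12510 and AT4G12520 8.9% each. Of annotated nuclear protein-coding genes 6.39% and 3.64% were listed, and of all listed genes 42.3% and 66.5% were lower. The chosen genes were picked on these contrasts, so nothing is read from this count. DL3625W (AT4G15160), a proline-rich gene on chromosome 4, had folds close to those of AIR1B. It was 2.45 against 16.4 FPKM in OX, 6.68-fold lower, and 2.21 against 15.6 FPKM in the RNAi tables, 7.03-fold lower. AT4G22485 and AT4G22505, neighbours of AT4G22470 with proline-rich products, were lower by 3.57-fold and 2.47-fold in OX and by 2.95-fold and 2.42-fold in the RNAi tables. The 30.1-fold difference of AT4G22470 in OX was thus not seen in these neighbours. Both also overlap an unlisted gene on the opposite strand over their whole length, 1971 and 1864 bases, with the same limit on strand. CWLP, a cell wall linker protein gene, was 2.75-fold lower in OX, under a locus that it shares with AT3G22121.

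The LTP-type list of 12 genes, which holds LTP3, had 3 lower and 2 higher in OX. In the RNAi tables it had 2 lower and 1 higher. The higher genes were LTP3, which was chosen on these contrasts, and in OX also its neighbour LTP4. Of annotated nuclear protein-coding genes 6.39% and 3.64% were listed, and of all listed genes 42.3% and 66.5% were lower. LTP1 and LTP2, neighbouring genes whose products are known from epidermal cell walls and the cuticle, were 637 against 1493 FPKM and 68.5 against 205 FPKM in OX, 2.34-fold and 2.99-fold lower. LTP2 was also 2.27-fold lower in the RNAi tables. LTP7 was 2.17-fold lower in OX, and LTP10 2.40-fold lower in the first RNAi column.

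LTP4 (AT5G59310), the tandem neighbour of LTP3 and likewise induced by abscisic acid, was 3.82 FPKM in OX against 0.406 FPKM. That is 9.42-fold higher, the 4th largest fold of the 1134 higher genes, with a deposited q-value of 0.00115 in the authors' table. The level of 0.406 FPKM is low, so the size and rank of this fold are uncertain. LTP4 was not listed in the RNAi tables. The coding sequences of LTP3 and LTP4 were 85.3% identical.

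Sorted by the spacing between the CC pair and the CxC triplet, genes with 13 residues were lower in 13 and higher in 1 case in OX, and lower in 15 and higher in 0 in the RNAi tables, the chosen genes and the tandem group included. Without those, they were lower in 6 and 7 and higher in 0. Of all listed genes, 42.3% and 66.5% were lower. Genes with 19 residues were lower in 3 and higher in 2 in OX, and lower in 2 and higher in 1 in the RNAi tables, LTP3 included. Without LTP3, which was chosen on these contrasts, they were lower in 3 and higher in 1 in OX. In the RNAi tables they were then lower in 2 and higher in 0. The 5 genes with 12 residues gave 2 lower and 1 higher in each comparison, and the 1 gene with 9 residues was lower in the RNAi tables alone. The search allowed no further cysteine within the motif. It found a motif in 30 of the 31 listed genes other than the glycolipid transfer gene AT4G39670. AT4G22485 was missed because of an additional cysteine at residue 642. Its CC pair at residues 607 and 608 and its CxC triplet at 622 to 624 have the spacing of 13 residues. AT4G22485, lower in both comparisons, is left out of the counts by spacing.

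**Figure D5:**
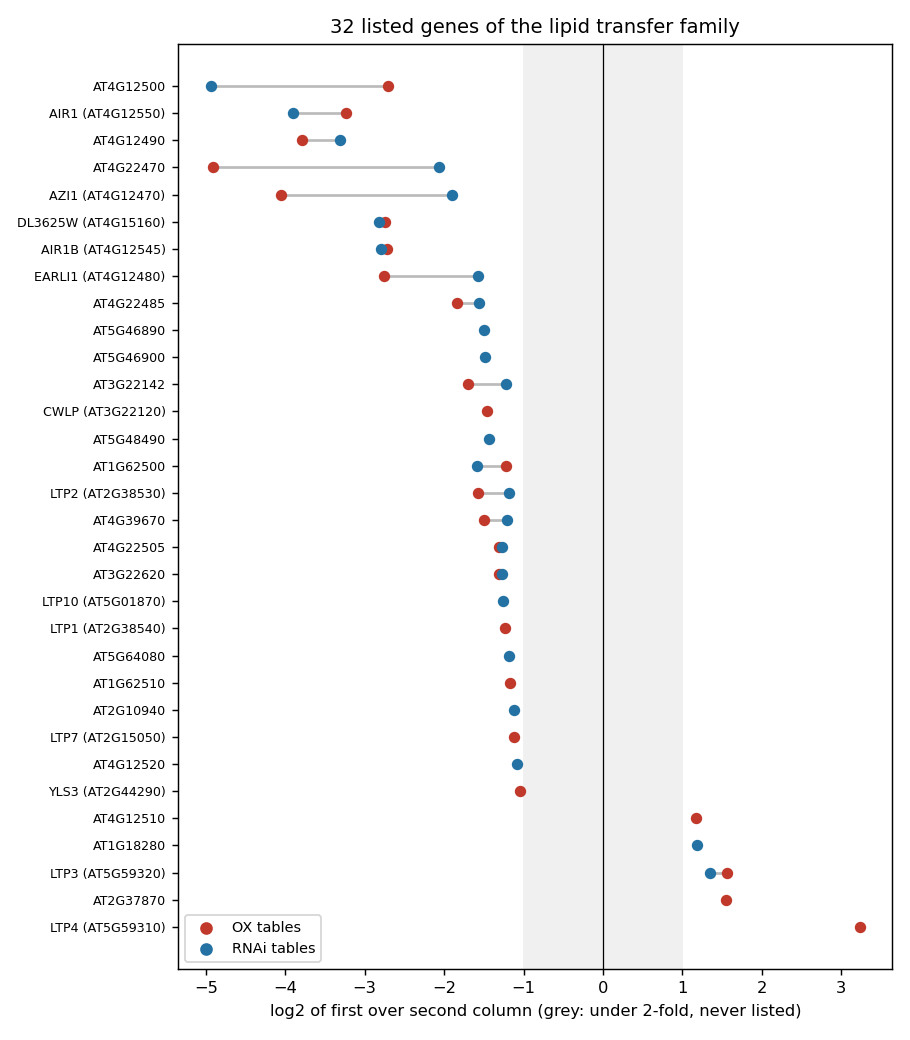
Log2 of first over second column for the 32 listed genes of the superfamily, red for the OX and blue for the RNAi tables, with a line joining genes listed in both. The 5 genes above 0 are AT4G12510, AT1G18280, LTP3, AT2G37870 and LTP4, and the largest gaps between the comparisons are those of AT4G12500, AT4G22470 and AZI1.

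The genes most like each of the 4 in both log2 ratios were found among the 550 genes listed in both, by Euclidean distance. Closest to AIR1 were AT4G20000, a VQ motif gene, at a distance of 0.36, then AT4G12490 at 0.81 and the chloroplast gene YCF1.2 at 1.07. Closest to AT4G12500 were AIR1 at 1.16 and AT4G20000 at 1.47, followed by the extensin-like gene AT2G24980 at 1.93. The 3 genes closest to AT4G22470 were all encoded in organelle genomes: PETB of the cytochrome b6f complex at 0.19, RBCL, the large subunit of Rubisco, at 0.24, and RRN26, a mitochondrial ribosomal RNA, at 0.26. PETB was 27.7-fold lower in OX and 3.77-fold lower in the RNAi tables. Closest to LTP3 were OFP14 at 0.04, MED9 of the Mediator complex at 0.05 and BGLU43 at 0.05. LTP3 lies where many listed genes lie, so small distances are common there. The likeness covers 2 ratios that share their second column and is a description.

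A few genes of the pathways around AIR1 and AZI1 were listed, to be read against 6.39% of annotated genes in OX and 3.64% in the RNAi tables. Of 22 genes of auxin response and lateral root formation, 1 was lower in OX and 2 were higher, and 0 were listed in the RNAi tables. LBD16, a regulator of lateral root initiation, was 0.480 against 1.42 FPKM, 2.96-fold lower, and the auxin-induced repressor genes IAA1 and IAA29 were 2.15-fold and 2.13-fold higher. Of 16 genes of systemic resistance, 2 were lower and 1 higher in each comparison. CBP60G, a regulator of salicylic acid synthesis, was 1.62 against 3.83 FPKM in OX and 1.56 against 3.65 FPKM in the RNAi tables. GH3.12 (PBS3), a salicylic acid synthesis gene, was 2.44-fold and 2.14-fold lower. BG2 (PR2), a defence glucanase, was higher, 1.42 against 0.168 FPKM in OX and 1.67 against 0.159 FPKM in the RNAi tables. Its folds of 8.46 and 10.5 rest on these low second-column values, so their size is uncertain. DIR1, a lipid transfer protein of systemic resistance, was not listed, while AT5G48490, another small lipid transfer gene, was 252 against 680 FPKM in the first RNAi column.

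Some root markers were listed as lower in the same columns as AIR1. Of 17 such genes, 6 were lower in OX and 7 in the first RNAi column, 0 were higher, and 11 and 10 were not listed. Of all annotated genes 6.39% and 3.64% were listed, and of the listed ones 42.3% and 66.5% were lower. The listed root markers, which are lower by the way they are counted, summed to 11.0 against 27.8 FPKM in OX and 10.2 against 27.3 FPKM in the RNAi tables. CASP1, of the endodermis, was 2.89-fold and 2.40-fold lower, and the root hair gene LRX1 2.25-fold and 5.26-fold lower. SCR, SHR and WOX5, which define root tissues, were not listed, and their levels were not analysed here. Of 10 leaf markers, 3 were lower and 1 higher in OX, and 1 was lower in the RNAi tables. The 3 lower ones summed to 12193 against 27477 FPKM in OX, while GL1 was 2.35-fold higher. In the RNAi tables the 1 lower leaf marker was 5644 against 13000 FPKM. Lower listed markers were thus not confined to root ones. The part of root tissue in the difference of AIR1 was not tested.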

How the data were processed

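RNA libraries were made from total RNA with an Illumina TruSeq kit, per the labels' protocols. TopHat2 2.1.1, Cufflinks 2.2.1, Cuffdiff and the TAIR10 genome are named in the submitters' processing notes, without their roles. The 4 deposited lists hold 1 FPKM value per group, computed by the authors. The deposited log2 ratio and fold columns were not used. The p-values and q-values are the authors' deposited ones.

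Folds and log2 ratios were recomputed from the 2 FPKM values of a gene, without a pseudocount, with Python 3.11.15, pandas 2.3.3 and numpy 2.4.6. No values per library were analysed here, so the planned limma fit was replaced by description. Deposited loci are printed counting from 1. Names of listed genes come from the deposited lists, and products and sequences from the RefSeq annotation of TAIR10.1. Of 2922 nuclear entries with an identifier in that annotation, 2921 overlapped the gene of that identifier. Identity was computed with Biopython 1.88 by global alignment. The upstream window of AT4G12500 is not reported here. The motif and distance searches were tested on simulated data. Genes are named by these rules: the 4 chosen genes, the identifiers AT4G12470 to AT4G12550, listed genes of the written lists, and the 3 nearest genes to each. The genes and lists were chosen with earlier results of these data known.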

Additional observations from a re-analysis of the deposited data

How the results depend on the processing

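The folds of the 4 genes were recomputed under 3 alternatives, which were adding 1 or 0.1 FPKM to both values and scaling by column medians. None of these could reverse a direction, so only the sizes are compared. An equal addition keeps the order of 2 values, and the median shifts were smaller than any listed log2 ratio. The folds that moved by over 1.5 times were those of AT4G22470 in OX, whose log2 ratio was -3.79 with 1 FPKM added, and of AT4G12500 in the RNAi tables, -3.45. The medians were taken over the 550 genes listed in both comparisons. Their log2 shifts were -0.37 in OX and -0.21 in the RNAi tables, under the listing limit of 1. These are medians of called genes, not a normalization over all genes. Of the superfamily, a log2 ratio of at least 1.5 left 11 lower genes in OX and 11 in the RNAi tables, and 3 and 0 higher ones. Higher genes in OX numbered 2 with a q-value of at most 0.01, 1 with at least 5 FPKM and 2 with a 2-fold difference of log2(FPKM + 1), against 2, 1 and 1 in the RNAi tables. Leaving out shared loci, using the written list alone or, chosen after seeing the data, leaving out glycolipid transfer and START proteins gave counts within 1.5 times. No paired analysis was possible because the lists hold 1 value per group, and for the same reason no library could be left out. Depth is unknown, so the precision of low values such as 0.502 FPKM cannot be given.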
